A study of Zea mays with 29 samples.

Results

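This comparison sets disomic haploid maize leaf against diploid maize leaf, in which the long arm of chromosome 1 (1L) is present in 2 copies in both, while every other chromosome segment is present in 1 set in disomic haploids and in 2 sets in diploids. It uses 6 of the 29 samples of the series, chosen by their labels: 2 disomic haploid libraries and 4 diploid libraries of the first dosage set, each made from poly(A) RNA of leaf. The first set also holds 3 tetrasomic, 5 trisomic and 3 haploid libraries, and the second set holds 10 more RNA libraries of monosomic, trisomic and diploid plants. The labels give no plant age, no inbred line and no statement on whether each library came from 1 plant. The design text calls the libraries biological replicates, so p-values measure the spread between libraries. The main edgeR fit took that spread from all 17 libraries of the first set, not from the 6 compared alone. An unbroken run of 3187 numbered gene identifiers is taken as the arm, and its members are called 1L genes below, and the remaining 37119 of the 40306 listed genes are called all other genes. The tables pair no gene with a chromosome. These identifier limits come from an earlier search in which tetrasomic libraries were set against the same diploid libraries, so the diploid libraries took part in defining 1L genes and the disomic haploid libraries did not.

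An aneuploid plant has an altered number of copies of a chromosome or arm, which changes the proportion of that segment to the rest of the genome. A haploid plant has a single copy of every segment, so its proportions stay those of a diploid. Genes on a varied segment often yield transcript in proportion to their copies, and some are held near the balanced level, known as dosage compensation. Genes elsewhere in the genome can also respond, and in maize a response inverse to the dose of the varied segment has long been described. Disomic haploids differ from diploids in both respects at once, in the proportion of 1L and in the size of the remaining genome. RNA-seq counts give each transcript relative to the others in its library, not per cell, and in bulk leaf fewer cells of a type and less RNA per cell cannot be told apart.

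The disomic haploid libraries held 17967959 and 16710206 counted reads, and the diploid libraries between 14933497 and 17777712. A filter on low counts kept 22435 genes, of which 1901 were 1L genes and 20534 were other genes. The identifiers matched 0 names in the gene table used here, so the label leaf was not checked against marker genes and no function is given for the 4 genes named below. Diploid replicate 1 stood apart from the other diploids, with a median absolute log2 difference of 0.44 to 0.47 per gene from each of them, while the other 3 differed from one another by 0.24 to 0.29. The disomic haploid libraries differed from each other by 0.31. No pair agreed within counting noise, since the chi-square per gene was 41.7 between the disomic haploids and 13.3 to 75.3 between diploids, against about 1 for repeats of 1 library.

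1L genes took a larger part of the transcriptome in disomic haploids. They received 14.1 and 13.6% of counted reads in the disomic haploid libraries, against 7.70, 7.48, 7.47 and 7.53% in diploid replicates 1 to 4. Both disomic haploid libraries lay above every diploid library, and the exact 95% binomial intervals spanned at most a few hundredths of a percentage point, which covers counting error only. The means were 13.8 ± 0.32% in disomic haploids (SD, n = 2) and 7.54 ± 0.10% in diploids (SD, n = 4). A proportion of 1L raised to 2 times that of diploids would give 14.0% by arithmetic from the diploid mean. Measured per length, the median deposited RPKM of tested 1L genes was 5.13 and 4.11 in the disomic haploid libraries, against 2.23, 1.86, 2.02 and 2.04 in the diploid libraries. For all other tested genes the median was 2.43 and 2.10 RPKM in disomic haploids and 2.24, 1.98, 1.98 and 2.06 RPKM in diploids. The ratio of the 1L median to the other median was thus 2.11 and 1.96 in disomic haploids and 0.943 to 1.02 in diploids.

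The same contrast was summarised as relative expression, the mean log2 CPM of 1L genes minus that of all other genes, where CPM is a count per equalised library size. It was 0.94 and 0.82 in disomic haploid replicates 1 and 2, against -0.01, -0.06, -0.02 and -0.01 in diploid replicates 1 to 4. The groups did not overlap. The difference of 0.91 (log2, SE 0.06) corresponds to 1.87 times the diploid level and to 90.7% of the log2 ratio of proportions, which is 1. The two-sided exact permutation p was 0.133, below which 2 libraries against 4 cannot go, or 0.267 when adjusted over 2 comparisons of this kind. The difference was 0.65 with mean log2(RPKM + 1), 0.73 without a filter, 0.98 with summed counts and 0.99 for genes averaging 5 CPM or more.

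**Figure D1:**
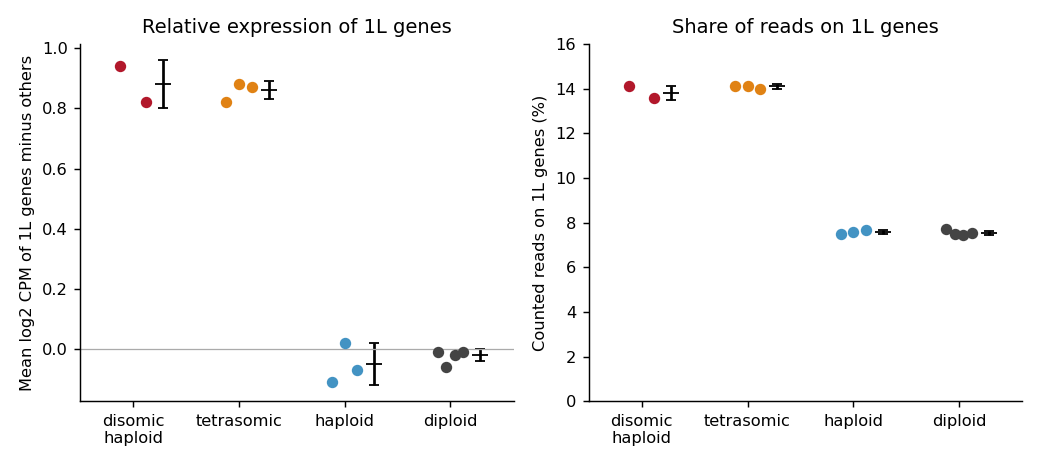
Left, relative expression of 1L genes (log2) and right, percent of counted reads on 1L genes, for each library of 4 groups of the first set, with black bars for group means and SD. Disomic haploids (0.82 to 0.94) sit beside tetrasomics (0.82 to 0.88) and above haploids (-0.11 to 0.02) and diploids (-0.06 to -0.01).

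Gene by gene, nearly all called 1L genes were higher in disomic haploids. In edgeR's quasi-likelihood test with Benjamini-Hochberg adjustment at 0.05 over all 22435 genes, 933 of the 1901 1L genes were higher and 14 lower, where 8.41% of all tested genes were called higher and 6.28% lower. The calls made 49.8% of 1L genes and 11.4% of all other genes, beside 14.7% of all tested genes. The median log2 fold change of disomic haploid over diploid was 0.94 over 1L genes and -0.06 over all other genes. The middle 50% of 1L genes lay between 0.48 and 1.30, and 240 of the 1901 had a fold change below 0. In 1269 1L genes (66.8%) both disomic haploid libraries lay above all 4 diploid libraries, a separation that 19.9% of all tested genes showed in this direction. In 44 1L genes (2.31%) both lay below all diploids, where 17.7% of all tested genes did. With the slightly later first limit found in the second set, which shares no library with this comparison, 931 1L genes were higher and 14 lower. Without disomic haploid replicate 1 the 933 became 468, with the spread of the remaining library taken from the other groups, and the 14 became 5. The 14 became 29 without diploid replicate 1, and 7, 9 and 7 without diploid replicates 2, 3 and 4.

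**Figure D2:**
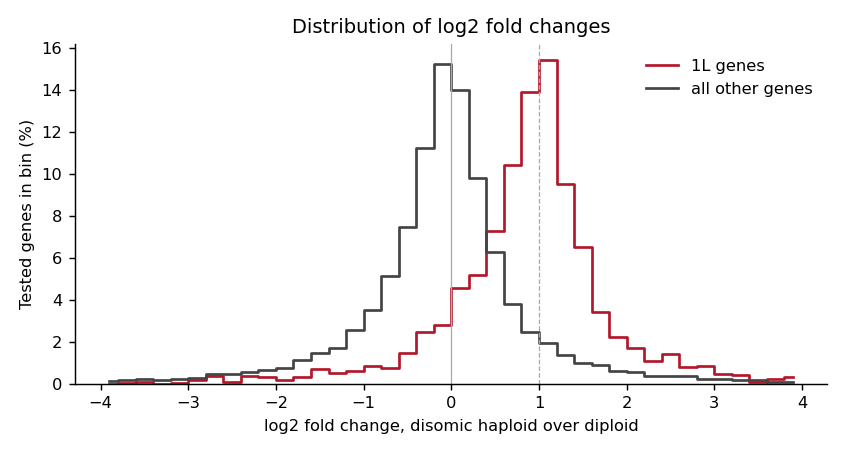
Percent of tested genes by log2 fold change of disomic haploid over diploid, in bins along the horizontal axis, for 1L genes (red) and all other genes (grey); 41 and 345 genes lie beyond the axis. The dashed line marks 1, the log2 ratio of the proportions of 1L, and the 1L curve peaks beside it while the other peaks beside 0.

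The 95% interval of each gene's fold change, not adjusted over genes, sorted 1L genes by response. It held 1 and excluded 0 for 994 of them (52.3%), where 11% of all tested genes had such an interval. For 184 (9.68%) it lay wholly above 1, against 2.72% of all tested genes. For 36 (1.89%) it lay between 0 and 1, against 1.18% of all other genes. It held 0 and excluded 1 for 249 (13.1%), where 49.7% of all tested genes had such an interval. A further 386 intervals (20.3%) held both values, as did 20.3% of those of all other genes, and 52 (2.74%) lay below 0, against 16.1% of those of all other genes. The interval reached 0.69 (log2) to either side at the median, so a partial response could seldom be told from a full one.

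The second set shares no library with these plants and gave another view of the same 1L genes. The 249 genes whose interval held 0 and not 1 had a median log2 fold change of -0.07 in disomic haploids over diploids. In the second set 243 of them were tested, and their median was -0.98 in monosomics over diploids, where all 1L genes had -0.93, and 0.34 in trisomics over diploids, where all had 0.50. The 994 genes whose interval held 1 had second-set medians of -0.92 in monosomics and 0.55 in trisomics. The 184 genes above 1 had a median of 2.45 in disomic haploids over diploids and, over the 152 tested in the second set, -0.90 in monosomics and 0.63 in trisomics. The 14 1L genes called lower in disomic haploids had a median of -2.16 there, and in second-set monosomics, with fewer copies of 1L, all 14 had a log2 fold change over diploids below 0, with a median of -1.04, where 71 of all 1770 tested 1L genes (4.01%) were above 0. In second-set trisomics over diploids 10 of the 14 were above 0, with a median of 0.20, against 87.8% of all tested 1L genes. The monosomic and trisomic comparisons share the second set's diploid libraries, and the gene groups were chosen by their values in the first set, so these medians are a description.

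The higher level ran along the whole stretch of 1L identifiers. Cut into 16 windows of 200 identifiers, the stretch had median log2 fold changes between 0.74 and 1.08. The lowest were in identifiers 3482 to 3681 (0.74) and 2882 to 3081 (0.77), and the highest was in 4082 to 4281 (1.08). The share of genes called higher ran between 34.9 and 61.0% by window, and the 5 lowest-numbered windows, which end at identifier 3681, had between 34.9 and 42.2%. In disomic haploid replicate 1 alone the window medians ran from 0.75 to 1.12, and in replicate 2 alone from 0.65 to 1.08. The 20 tested genes just inside the first limit had a median of 0.98 and the 20 just outside it -0.10. At the last limit the medians were 0.90 inside and 0.15 outside. No other window came near these values: the 38 windows of up to 1000 identifiers over all other genes had medians between -0.12 and 0.01, and between -0.10 and 0.04 in either disomic haploid library alone.

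**Figure D3:**
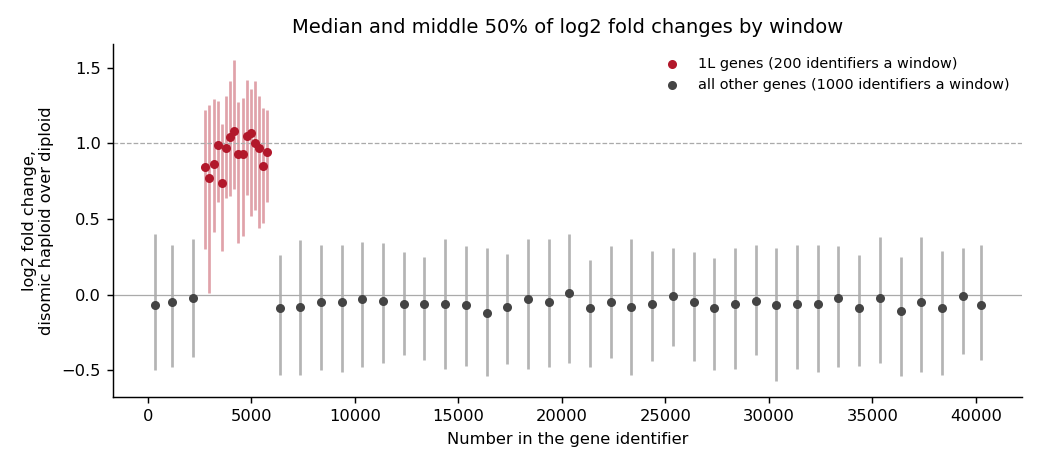
Median (points) and middle 50% (lines) of log2 fold changes of disomic haploid over diploid in windows of consecutive gene identifiers. The 16 windows of 1L genes lie between 0.74 and 1.08, and the 38 windows of all other genes between -0.12 and 0.01.

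Among 1L genes the share called varied with the level of expression, and the median fold change varied little. With all tested genes divided into tertiles by mean level over the first set, the median log2 fold change of 1L genes was 0.98 in the low tertile, 0.99 in the middle and 0.92 in the high one. Called higher were 131 of 550 (23.8%), 324 of 592 (54.7%) and 478 of 759 (63.0%) in that order. The middle 50% of low-level 1L genes spread from 0.12 to 1.70, against 0.59 to 1.17 at high level. Among the 100 most abundant genes of the set, 8 were 1L genes, and all 8 had a log2 fold change above 0 with a median of 0.38. Of these 8, 0 were called in edgeR, 0 had an unadjusted p below 0.05 and 0 were called in DESeq2.

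The 1L gene that met the naming rule with the largest rise was Zm00004b003709. It stood at 22.2 and 13 CPM in the disomic haploid libraries, against 0.297, 0.076, 0 and 0.136 CPM in diploid replicates 1 to 4. The disomic haploid libraries together held 671 reads of it and the diploids 8, and the groups did not overlap, as the naming rule required. The fitted log2 fold change of 6.99 had an SE of 0.94 (edgeR adjusted p = 0.000341) and lay far beyond the log2 ratio of proportions, and was 7.85 without diploid replicate 1. It lay between these levels in tetrasomics, at 4.46, 2.99 and 4.70 CPM, and near the diploid level in haploids, at 0.273, 0.0539 and 0.576 CPM. The summed read ratio of disomic haploid over diploid was 137, with an exact 95% counting interval of 69.1 to 318.

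The 1L gene with the largest fall was Zm00004b004304, 1 of 6 that met the rule in this direction. It had 0.585 and 0.663 CPM in the disomic haploid libraries, against 2.79, 25.2, 10.6 and 9.39 CPM in diploid replicates 1 to 4. Both disomic haploids lay below all diploids, as the rule required, and diploid replicate 1 was closest to them. The fitted log2 fold change of -4.25 had an SE of 1.09 (edgeR adjusted p = 0.0173), and was -3.58 without diploid replicate 2. The call was lost without disomic haploid replicate 1 (edgeR adjusted p = 0.179), without replicate 2 (edgeR adjusted p = 0.0896) and with limma-trend on log2(RPKM + 1) (adjusted p = 0.0955), in a range over all settings from 1.16e-05 with DESeq2 to 0.179. In haploids it stood at 4.09, 6.10 and 2.01 CPM and in tetrasomics at 2.26, 13.5 and 3.70 CPM, so that both groups lay above the disomic haploids. First-set trisomic replicates 1 to 5 had 23, 9.48, 18, 34.7 and 5.98 CPM of it. In the second set it had a log2 fold change of -1.26 in monosomics over diploids (SE 0.22, edgeR adjusted p = 0.00647). There it was 0.27 in trisomics over diploids (SE 0.23, edgeR adjusted p = 0.851). In trisomics over monosomics it was 1.53 (SE 0.22, edgeR adjusted p = 0.000627).

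Outside 1L, 954 genes were higher and 1396 lower in disomic haploids, which is 4.65 and 6.80% of the 20534 tested. These shares compare with 8.41 and 6.28% of all tested genes. The genes called higher had a median log2 fold change of 1.85 and those called lower -1.34. Beyond a fold change of 2 were 783 of the first and 931 of the second, where all 22435 tested genes gave 1457 and 944. Both disomic haploid libraries lay above all diploids in 3185 other genes (15.5%) and below all diploids in 3918 (19.1%), where 19.9 and 17.7% of all tested genes were so separated. The balance of the calls was not stable. Without disomic haploid replicate 1 there were 178 higher and 118 lower, with the compared libraries alone 701 and 669, and with limma-trend on log2(RPKM + 1) 1218 and 740, each with more genes higher than lower. The counts were 782 and 807 without disomic haploid replicate 2. Without diploid replicates 1, 2, 3 and 4 they were 1274 and 2191, 588 and 743, 728 and 856, and 670 and 814. With the replicate number as a block they were 769 and 800, and without a filter 947 and 1018.

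The interval held -1, the inverse of the log2 ratio of proportions of 1L, and excluded 0 for 2436 other genes (11.9%), where 11% of all tested genes had such an interval. Of these other genes 961 were called, as were 7 of the 40 1L genes (2.1%) with such an interval. The interval lay wholly below -1 for a further 405 of the 20534 other genes and for 12 of the 1901 1L genes. On the opposite side, it held 1 and excluded 0 for 1472 other genes (7.17%), where 11% of all tested genes had such an interval. It lay wholly above 1 for 427 other genes (2.08%), against 2.72% of all tested genes. The middle 50% of all other genes lay between -0.48 and 0.32.

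The split of calls into higher and lower varied with the level of expression. In the low tertile 457 other genes were higher and 367 lower, which is 6.60 and 5.30% of those tested there. The middle tertile had 305 and 425 (4.43 and 6.17%), and the high tertile 192 and 604 (2.86 and 8.99%). Without disomic haploid replicate 1 the high tertile had 43 higher and 39 lower, and in the other fits, leaving out replicates, filters, scalings or tools in turn, it had more lower than higher calls. Scaling on 1L genes, which moves all genes down together, is not counted here. In the low tertile lower calls outnumbered higher ones with DESeq2 (528 and 612) and without diploid replicate 1 (500 and 557). Of the 92 other genes among the 100 most abundant, 71 had a log2 fold change below 0 and their median was -0.61, with 1 called higher and 15 lower. The 15 became 1 without disomic haploid replicate 1, 5 without replicate 2, 30 without diploid replicate 1, and 3, 3 and 4 without diploid replicates 2, 3 and 4. That median was -0.38 without disomic haploid replicate 1 and -0.84 without replicate 2. The 100 most abundant genes of each library took 27.5 and 33.1% of its reads in disomic haploids and between 32.2 and 38.6% in diploids, where the lowest diploid value was that of replicate 1.

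**Figure D4:**
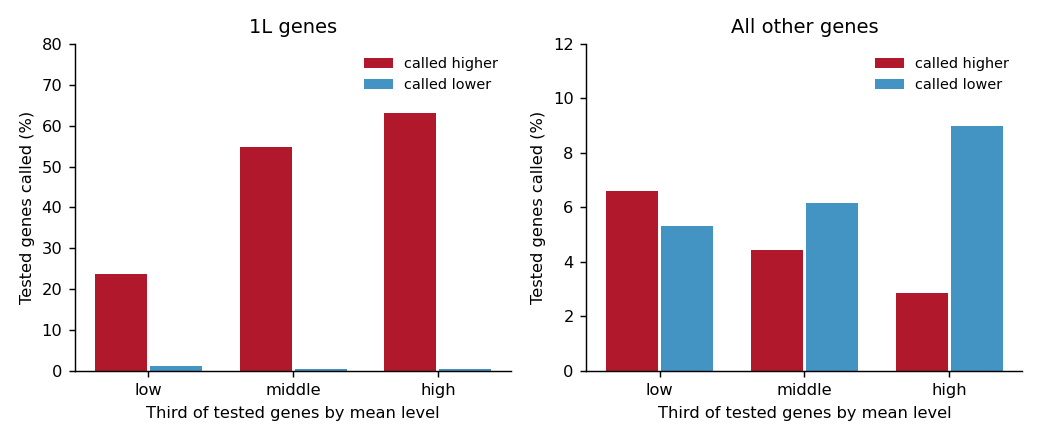
Percent of tested genes called higher (red) and lower (blue) in disomic haploids by edgeR in each tertile of mean level, for 1L genes (left) and all other genes (right, on its own scale). Among other genes, higher calls run from 6.60 to 2.86% and lower calls from 5.30 to 8.99% with rising level.

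Because both groups carry 2 copies of 1L, the 1L genes can also serve as the scaling standard. With TMM factors computed on 1L genes alone, the median log2 fold change of 1L genes was 0.04 and that of all other genes was -0.96, where log2 of 1 genome set over 2 is -1. On this scale edgeR called 13569 of the 22435 tested genes, against 3297 on the scale used elsewhere. Of other genes 12795 were lower and 379 higher, and of 1L genes 214 were lower and 181 higher. This scaling moves all genes down together, so these counts restate the contrast between the 2 gene groups. The median of all tested genes moved to -0.92, against -0.01 on the scale used elsewhere. With TMM factors computed on other genes alone the medians were 0.99 for 1L and -0.01 for other genes, with 1054 other genes higher and 1190 lower. The counts do not tell which scale holds per cell, and only the contrast between the 2 gene groups is common to them.

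The same other genes were followed in plants of the first set that differ from diploids in 1 respect. The 954 called higher had a median log2 fold change of 0.77 in haploids over diploids and of 0.63 in tetrasomics over diploids, where all other genes had -0.02 and -0.06. The 1396 called lower had medians of -0.35 in haploids and -0.67 in tetrasomics. These comparisons share the diploid libraries with the disomic haploid comparison, so the values stand side by side only. Tetrasomics over haploids share no library with it and also set a raised proportion of 1L against a balanced genome, though there the raised proportion is in the plants with more genome sets. There the 954 had a median of -0.13, with 425 (44.5%) above 0, and the 1396 had a median of -0.31, with 370 (26.5%) above 0. Over all other genes the median was -0.07 and 43.7% were above 0, and over all tested genes 47.4% were.

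Second-set monosomics and trisomics carry an unequal proportion of 1L in an otherwise diploid genome, and the second-set diploids a balanced one. Of the 1396 genes called lower in disomic haploids, 1378 were tested there, and in trisomics over diploids 257 (18.7%) were above 0 with a median of -0.21. Among all other genes 44.8% were above 0 with a median of -0.03, and among all tested genes 48.3%. In monosomics over diploids 720 of the same 1378 (52.2%) were above 0, with a median of 0.02, against 58.9% and 0.07 for all other genes and 54.5% for all tested genes. Of the 954 called higher, 760 were tested, with 475 (62.5%) above 0 in trisomics at a median of 0.14 and 482 (63.4%) above 0 in monosomics at a median of 0.17. In trisomics over monosomics, 424 of the 1378 (30.8%) and 359 of the 760 (47.2%) were above 0, against 40.6% of all other and 45% of all tested genes. No test of these shares was made. Across 19411 other genes the fold changes of disomic haploids over diploids had a Pearson r of 0.25 (Spearman rho 0.29) with those of second-set trisomics over diploids, of 0.033 (rho 0.058) with those of monosomics over diploids, and of 0.16 (rho 0.14) with those of trisomics over monosomics. With tetrasomics over haploids, across 20534 other genes, r was -0.011 and rho 0.098. These are descriptions across genes, where genes of 1 library share its composition and are not independent.

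A few transcripts were nearly absent from 1 of the groups. Of the 40306 listed genes 49 (0.122%) had at least 10 reads in each disomic haploid library and at most 3 in all diploid libraries together, and 7 of them were 1L genes. Of the 49, 2 reached 10 reads in each haploid library and 0 did in each tetrasomic library. Only 6 of the 49 had at most 3 reads in all haploids, and 17 in all tetrasomics, so most met neither limit in those groups. The converse held for 22 genes (0.0546%), with at least 10 reads in every diploid library and at most 3 in the disomic haploids together, and 2 were 1L genes. Of these 22, 8 had at least 10 reads in each haploid library and 4 in each tetrasomic library. At most 3 reads in all haploids were held by 1 of the 22, and in all tetrasomics by 0.

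Among other genes the largest rise by the naming rule was that of Zm00004b011994. It had 80.6 and 16 CPM in the disomic haploid libraries, against 0.297, 0.456, 0.252 and 0.272 CPM in diploid replicates 1 to 4. Replicate 1 was well above replicate 2, and both lay far above every diploid. The fitted log2 fold change of 7.23 had an SE of 0.93 (edgeR adjusted p = 0.000272), and was 5.63 without disomic haploid replicate 1 and 7.97 without replicate 2. In haploids it stood at 1.53, 1.19 and 3.11 CPM and in tetrasomics at 1.5, 1.44 and 0.442 CPM. Haploids lay above every diploid, and all 6 of these libraries lay below both disomic haploids.

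The largest fall among other genes was that of Zm00004b010606, at 0 and 0.12 CPM in the disomic haploid libraries and 24.5, 25.3, 28.1 and 62.3 CPM in diploid replicates 1 to 4. The disomic haploids held 2 reads of it together and the diploids 2107. The read ratio of disomic haploid over diploid was 0.00155, with an exact 95% counting interval of 0.000188 to 0.0056, and the fitted log2 fold change of -9.15 depends on the prior count (edgeR adjusted p = 0.00236). Without disomic haploid replicate 1 the call was lost (edgeR adjusted p = 0.0591, in a range over all settings from 2.94e-07 to 0.0591). It was also near 0 in haploids, at 0.218, 0 and 0.576 CPM, and stood at 3.49, 5.65 and 5.42 CPM in tetrasomics. In trisomic replicates 1 to 5 of the first set it had 5.73, 8.79, 9.74, 13.6 and 0.052 CPM. The value of trisomic replicate 5 rests on 1 read, and the other trisomics stood between 5.73 and 13.6 CPM. The fitted value was -8.10 without disomic haploid replicate 1 and -12.22 without replicate 2. The genes named here kept their direction in every fit in which they were tested, as groups without overlap were a condition for naming. On log2(RPKM + 1) their log2 fold changes were smaller, at 3.78 for Zm00004b003709, -1.09 for Zm00004b004304, 4.23 for Zm00004b011994 and -4.12 for Zm00004b010606.

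**Figure D5:**
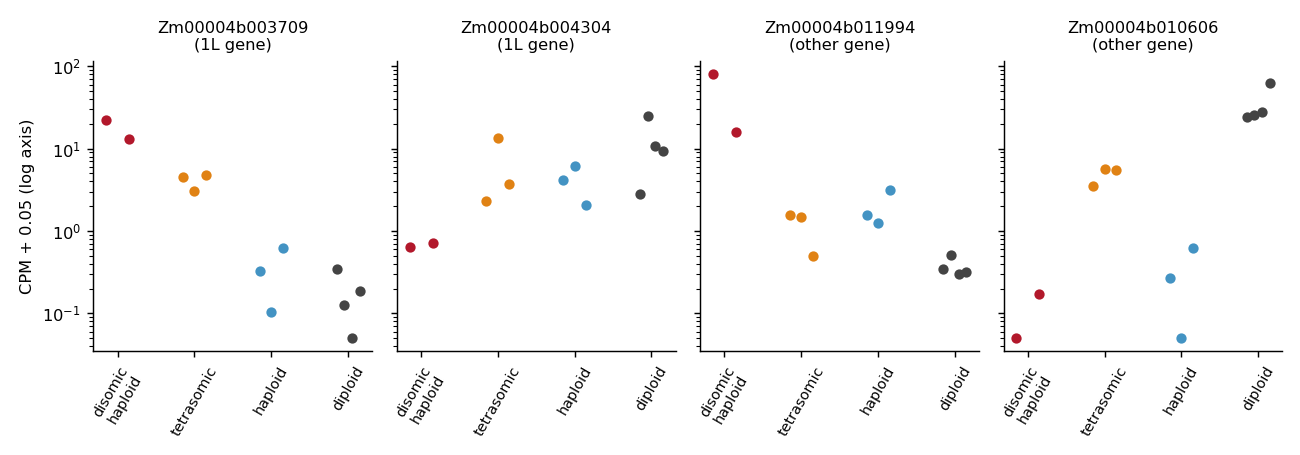
CPM plus 0.05 on a log axis for the 4 named genes, with 1 point for each disomic haploid, tetrasomic, haploid and diploid library. In each panel both disomic haploid libraries lie on 1 side of all 4 diploid libraries, which was a condition for naming a gene.

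Tetrasomics have the same proportion of 1L to the rest of the genome as disomic haploids, at 4 copies against 2 sets. Relative expression of 1L genes was 0.88 ± 0.08 (log2, SD, n = 2) in disomic haploids and 0.86 ± 0.03 (SD, n = 3) in tetrasomics. The groups differed by 0.03 (SE 0.06), less than the disomic haploid libraries differed from each other (exact permutation p = 0.6, where 0.2 is the smallest possible, and 0.6 adjusted), and its sign turned with summed counts (-0.03) and without disomic haploid replicate 1 (-0.03). In edgeR 112 of 22435 genes (0.499%) differed between these groups, with 7 higher and 3 lower in 1L and 69 higher and 33 lower outside it. The median log2 fold change of disomic haploid over tetrasomic was 0.02 over 1L genes and -0.01 over other genes. These results do not show that the groups are equal.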

How the data were processed

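The deposited tables give each library's raw counts for every gene model as integers. Values in the deposited RPKM table matched those counts divided by a fixed gene length and the library's total for all 30400 genes with a read, within a relative tolerance of 1e-06. Bowtie, TopHat, Cufflinks and Cuffdiff are named per the submitters' processing notes; which step each served, the version and the build were not given in the sources used here.

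For the counts, edgeR 4.0.16 under R 4.3.3 was run with filterByExpr, TMM and robust quasi-likelihood F-tests, two-sided, fitted on all 17 libraries of the first set with group as the only term. A gene was called at a Benjamini-Hochberg adjusted p under 0.05. The biological coefficient of variation was 0.318. The second set was fitted in the same way on its own. Relative expression used a prior count of 2. Intervals of shares and of read ratios cover counting error only, since reads carry no molecular identifiers. Intervals of fold changes were derived from edgeR's fold change and F statistic and include the spread between libraries. They exclude 0 where the unadjusted p of that test is below 0.05. DESeq2 1.42.0 and limma 3.58.1 served as alternatives.

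The members and lists were chosen with earlier results of these data known. Named genes are the largest rise and fall among 1L genes and among other genes that were called, averaged 5 CPM or more over the 6 libraries and had no overlap of groups; 761, 6, 495 and 949 genes met this. Since the identifiers matched no names, no gene or marker list was applied.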

Additional observations from a re-analysis of the deposited data

Results flagged for a closer look

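Among 6 sets of 4 diploid values that were screened, 2 held a library far from the other 3, where chance gives about 1 in 20 such sets. Relative expression of 1L genes was -0.06 (log2) in diploid replicate 2, the lowest of the diploid libraries, which otherwise lay between -0.02 and -0.01. Without that library the difference between disomic haploids and diploids was 0.90 in place of 0.91. For Zm00004b010606, diploid replicate 4 stood at 62.3 CPM, above 24.5 to 28.1 CPM in the other diploids, and without it the log2 fold change was -8.70 in place of -9.15. Leaving out a disomic haploid library moved it further, to -8.10 without replicate 1 and -12.22 without replicate 2.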

How the results depend on the processing

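The 3297 genes called in disomic haploids against diploids became 13569 with TMM on 1L genes and 2163 with the compared libraries alone, and ran from 769 without disomic haploid replicate 1 to 4455 without diploid replicate 1, passing 2133 without diploid replicate 2. The other settings gave counts within 1.5 times of it, among them 4483 with DESeq2. The median log2 fold change of 1L genes, 0.94, was 0.99 with TMM on other genes, 0.04 with TMM on 1L genes, 0.74 with limma-trend on log2(RPKM + 1) and 0.91 without a filter, and 0.87 to 0.98 when a library was left out. For all other genes, -0.06 became -0.01, -0.96, 0.07 and 0.00 in the same order, and -0.08 to -0.03 when a library was left out. The difference in the share of reads, 6.28 percentage points, ran from 6.06 to 6.51. The difference from tetrasomics turned to -0.03 with summed counts and ran from -0.03 to 0.08 when a library was left out. The cause of these shifts was not tested. Relative expression of 1L genes kept its direction in all 15 alternatives, from 0.65 to 0.99, in a design too small to pass 0.05.

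Replicate numbers are shared by disomic haploids and diploids in 2 pairs only. Deviations from the group means correlated at 0.13 and 0.18 for equal numbers. With 2 disomic haploid libraries these deviations mirror each other, so the numbers are not shown to pair the samples. With the replicate block, 2341 genes were called, and relative expression differed by 0.92 from diploids (exact p = 0.5, the smallest that 2 pairs can give) and by 0.03 from tetrasomics.

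With 2 disomic haploid libraries, leaving out 1 leaves a lone library whose spread is taken from the other groups. The part of read depth in the calls was not tested: in the low tertile 23.8% of 1L genes were called higher, against 63.0% in the high tertile, while among other genes 6.60 and 5.30% were called higher and lower in the low tertile, against 2.86 and 8.99% in the high one.
The recounts by tertile and among the most abundant genes were added after seeing the data.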
